A study of Mus musculus with 24 samples.

Results

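Thyroid hormone receptors, the enzymes that set the hormone level in tissues and some of the genes that the receptors control were followed in 24 postnatal mouse lungs. The 7 genes were *Thra* and *Thrb*, which encode the receptors, *Dio2* and *Dio3*, which encode deiodinases, and *Hr*, *Klf9* and *Thrsp*, which are targets. They are 7 of the 23420 rows in each of the 4 deposited tables, found by gene symbol. They were chosen by name after *Hr* had been seen among the few genes lower in P5 *Vangl2* mutants, so their values in that comparison are given as a description with no test. All 7 passed the filter on low values in all 4 comparisons.

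The left lobe was sequenced from mice at postnatal day 2 (P2) and postnatal day 5 (P5). The design text gives the aim as the *Ror2*-*Vangl2* axis in alveolar development, and the *Vangl2* lungs were also sequenced to ask where delivery of PDGF ligand from the epithelium might fail. At each age there were 3 *Sox9Cre/+; Vangl2f/f* mutants with 3 controls of their own and 3 *Sox9Cre/+; Ror2f/f* mutants with 3 other controls, which makes 8 groups of 3 lungs. All controls are labelled WT, under titles of Control(Vangl1/2) or Control(Ror2), and no Cre or floxed allele is named for them. *Sox9Cre* removes a floxed gene in the distal lung epithelium and is also active in other organs, while the whole lobe was sequenced, so every value mixes the epithelium with mesenchyme, vessels and blood. Groups follow the titles, since 2 mutant groups (*Vangl2* at P5, *Ror2* at P2) carry a genotype entry for the wrong gene. In such a bulk sample, fewer cells of a type and less RNA per cell cannot be told apart. Each value is the number of reads on a gene scaled by the size factor of that lung (normalized count).

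Thyroid hormone receptors are nuclear receptors that sit on DNA with and without hormone. Without hormone they hold corepressors on their targets, and hormone exchanges these for coactivators. Type 2 deiodinase, the product of *Dio2*, makes the active hormone inside cells, and type 3 deiodinase, the product of *Dio3*, inactivates it. In rodents circulating thyroid hormone rises over the first postnatal weeks, when alveoli form. *Hr* encodes Hairless, a corepressor of nuclear receptors and a classical target in the postnatal brain. *Klf9* encodes a Krüppel-like transcription factor that responds to thyroid hormone and to glucocorticoids. *Thrsp* (Spot 14) is a hormone-responsive gene of lipid synthesis in liver and fat.

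The promoters of *Thrb* and *Klf9* are shown because these genes had the most positive log2 fold changes of the 7 at P2. RefSeq promoter windows (GRCm38.p6, 250 bases before to 50 after a start site) matched 5 of the 7 members by symbol, with 6 windows in all; *Hr* and *Thra* had none. *Thrb* lies on the + strand of chromosome 14 and has 2 windows, at chr14:17660710-17661009 and chr14:17981394-17981693, and the *Klf9* window is at chr19:23140976-23141275 on the + strand of chromosome 19. They are printed 5′ to 3′ in lower case, with the consensus hexamer of a thyroid hormone receptor element, AGGTCA, in capitals.
Thrb, upstream start: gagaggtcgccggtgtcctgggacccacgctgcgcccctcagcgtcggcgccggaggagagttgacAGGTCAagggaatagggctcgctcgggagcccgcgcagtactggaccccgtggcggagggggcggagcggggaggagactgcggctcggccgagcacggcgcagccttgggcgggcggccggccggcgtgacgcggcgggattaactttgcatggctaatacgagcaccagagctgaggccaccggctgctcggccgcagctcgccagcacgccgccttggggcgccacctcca
Thrb, downstream start: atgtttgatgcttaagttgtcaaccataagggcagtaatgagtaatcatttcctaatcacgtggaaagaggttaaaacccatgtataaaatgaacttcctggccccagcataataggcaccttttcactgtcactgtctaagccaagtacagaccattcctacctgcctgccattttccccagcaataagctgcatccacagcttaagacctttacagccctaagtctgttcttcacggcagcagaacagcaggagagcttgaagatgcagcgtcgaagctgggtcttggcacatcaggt
Klf9: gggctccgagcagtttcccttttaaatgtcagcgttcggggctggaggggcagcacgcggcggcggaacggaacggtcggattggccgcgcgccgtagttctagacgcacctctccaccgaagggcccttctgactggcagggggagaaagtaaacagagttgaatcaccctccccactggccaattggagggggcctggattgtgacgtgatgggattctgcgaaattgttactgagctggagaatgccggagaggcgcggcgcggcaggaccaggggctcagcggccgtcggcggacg

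The hexamer was searched on both strands. It occurred once in the 6 windows, on the + strand of the upstream *Thrb* window at -184 from the start site, and 16.3% of all 32851 promoter windows held at least 1. A direct repeat of it with 4 bases between (AGGTCANNNNAGGTCA) was in none of the 6 and in 5 windows overall (0.0152%). A match describes letters only and was not tested as a site.

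Across the members, *Hr* was lower on average and *Thrb* higher on average in both mutants at both ages, while *Klf9* was higher on average at P2 and had log2 fold changes of both signs at P5. In the 3 comparisons that were tested, 0 of 21 member tests had an adjusted p under 0.05 (limma with Benjamini-Hochberg adjustment over all genes). At an unadjusted p under 0.05 there were 2 members in *Vangl2* mutants at P2, 2 in *Ror2* mutants at P2 and 5 in *Ror2* mutants at P5. The 5 include *Dio3*, which had too few reads for a fold. Of all genes, 3921 of 17448, 3380 of 17541 and 3180 of 17177 were under that threshold in these comparisons in turn. edgeR on the recovered reads, run at P2 only, likewise called 0 members. Of all genes tested, 3.59% were called in *Vangl2* mutants at P2, 0% in *Ror2* mutants at P2 and 0.180% in *Ror2* mutants at P5. Over all genes at P2, edgeR called 641 in *Vangl2* mutants and 0 in *Ror2* mutants. In *Vangl2* mutants at P5 0.563% were called, among them the 1 member (*Hr*) on which the choice rested. With the replicate number as a block, since same-numbered lungs of that comparison deviated together, 1558 of 17410 genes and 2 members were called there, from which nothing is read about the members.

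The number of members whose 3 mutant lungs all lay past the 3 control lungs was 2 of 7 in *Vangl2* mutants at P2, where 29.6% of all genes did. It was 2 of 7 in *Ror2* mutants at P2, against 25.7% of all genes. In *Ror2* mutants at P5 it was 5 of 7 (4 below and 1 above), against 30.0%. The 4 below include *Dio3*, which had only 0 to 4.02 normalized counts in these lungs. In *Vangl2* mutants at P5 it was 3 of 7, beside 25.7% of all genes, from which nothing is read because the choice used that comparison. The plot of log2 fold changes sets the 4 comparisons side by side.

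**Figure D1:**
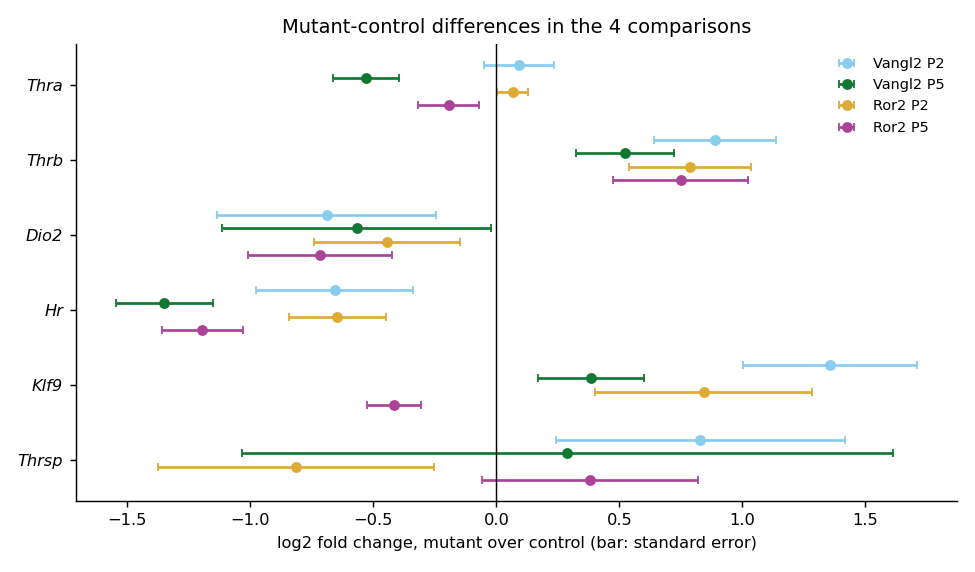
Log2 fold change (x axis, mutant over control, on log2(normalized count + 1)) of 6 members (y axis) in the 4 comparisons, 1 colour each; points are limma estimates from 3 mutant and 3 control lungs (2 controls for Thrsp in Ror2 P5) and bars are their standard errors. All 4 points of Hr and of Dio2 lie below 0 and all 4 of Thrb above it; Dio3 is left out because it had too few reads for a fold.

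*Thra* (chr11:98740638-98769006, + strand) was the more abundant receptor gene in every group. RPKM here scales reads to exon length and to a common total over chromosomes other than 5 to 9 and X. It therefore runs higher than RPKM on a whole-library total. In these units the *Vangl2* controls had 44.9 ± 1.70 of *Thra* (SD, n = 3) and 1.39 ± 0.319 of *Thrb* at P2. The ratio of the 2 group means lay between 30.4 and 58.8 in the 4 control groups and between 18.2 and 30.9 in the 4 mutant groups. Within every comparison the ratio was lower in the mutants, for example 48.98 in controls and 23.6 in mutants in the P5 *Vangl2* lungs. The 3′ end of *Thra* overlaps *Nr1d1* on the opposite strand, and since the strand setting of the read counting is not given in the sources used here, *Thra* counts may include *Nr1d1* reads.

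*Thra* counts overlapped between mutants and controls at P2. In P2 *Vangl2* lungs the controls had 2753, 2825 and 2626 normalized counts and the mutants 3647, 2658 and 2553, a log2 fold change of 0.092 (SE 0.14, limma adjusted p = 0.735). Mutant replicate 1 stood above the other lungs, and without it the log2 fold change was -0.070. The P2 *Ror2* lungs were closer together, with 2899, 2969 and 2869 in controls and 2952, 3128 and 3065 in mutants (log2 fold change 0.066, SE 0.064, limma adjusted p = 0.584).

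At P5 the *Vangl2* controls had 3757, 3780.4 and 3702 normalized counts of *Thra* and the mutants 2407, 2980.5 and 2432, so that all mutants lay below all controls (log2 fold change -0.53, not tested). In the P5 *Ror2* lungs the ranges overlapped, with 3153, 3886 and 3787 in controls and 2726, 3104 and 3664 in mutants. That log2 fold change was -0.19 (SE 0.12, limma adjusted p = 0.431).

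*Thrb* (chr14:17660261-18038090, + strand) was above the controls in every mutant lung of all 4 comparisons. At P2 the *Vangl2* controls had 149, 159 and 101 normalized counts and the mutants 316, 246 and 197. The log2 fold change was 0.89 (SE 0.25), or 1.85-fold on that scale, with a limma adjusted p of 0.0933. Over 14 alternatives the adjusted p ranged from 0.0368 (without mutant replicate 3) to 0.257 (without control replicate 3) and was under 0.05 in 1. In the P2 *Ror2* lungs the controls had 161, 124 and 176 and the mutants 258, 197 and 358, a log2 fold change of 0.79 (SE 0.25, limma adjusted p = 0.206). The 2 P2 changes differed by 0.10 (SE 0.37, limma adjusted p = 0.992).

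The P5 *Thrb* counts were lower but ordered the same way. The *Vangl2* controls had 112, 122 and 133 normalized counts and the mutants 159, 179 and 191 (log2 fold change 0.52, not tested). The *Ror2* controls had 65.3, 107 and 123.0 and the mutants 198, 169 and 124.1, so that the lowest mutant lay just above the highest control. The log2 fold change was 0.75 (SE 0.28, limma adjusted p = 0.219), and it differed from the P2 value by -0.039 (SE 0.40, limma adjusted p = 0.982).

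**Figure D2:**
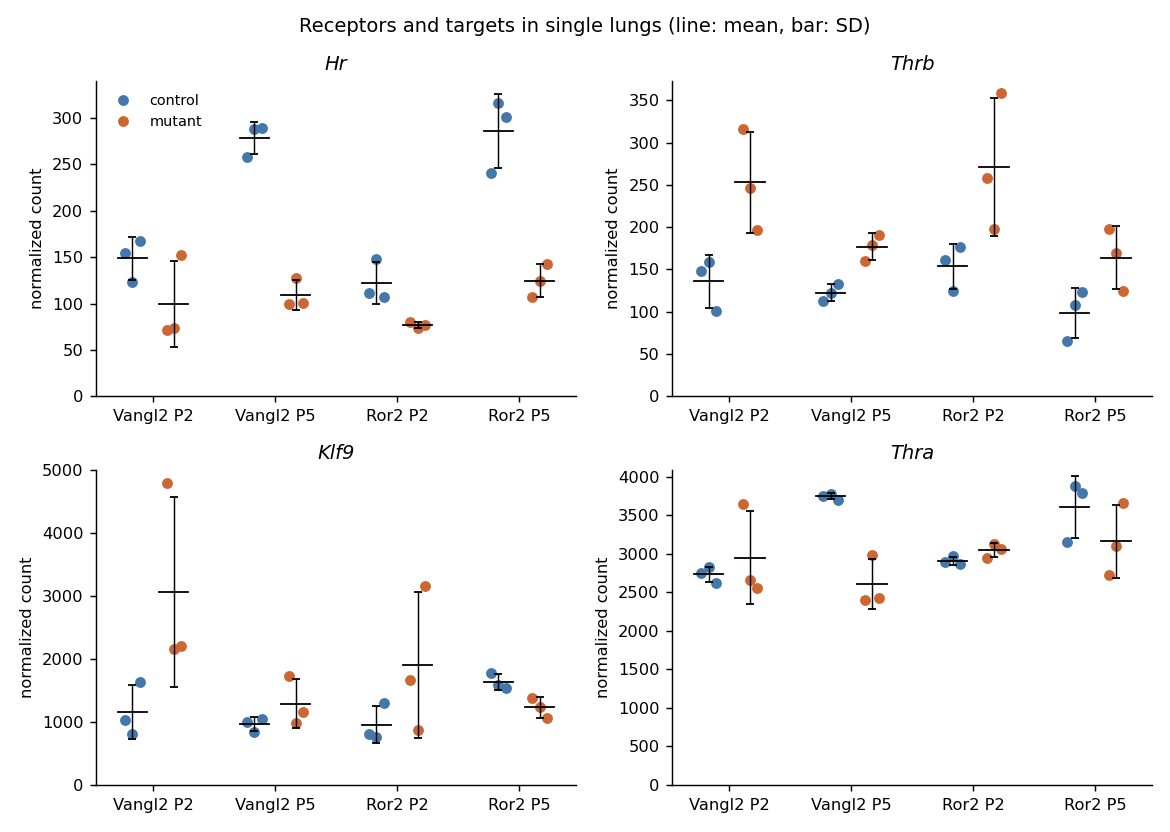
Normalized counts (y axis, from 0) of Hr, Thrb, Klf9 and Thra in single lungs (1 point each) for the 4 comparisons (x axis), controls in blue and mutants in orange; lines are means of 3 lungs and bars their SD. Hr is near or under 150 in every mutant lung, Thrb mutants lie above their controls in each comparison, and Klf9 spreads widest among the P2 mutants. Each comparison was normalized by itself.

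*Dio2* (chr12:90724552-90738438, - strand) had few reads, and its log2 fold change was below 0 in all 4 comparisons without passing the test in any of the 3 that were tested. At P5 the *Ror2* controls had 38.2, 42.2 and 50.6 normalized counts and the mutants 20.1, 36.6 and 23.9, so that all mutants lay below all controls. The log2 fold change was -0.72 (SE 0.29, limma adjusted p = 0.246). At P2 the ranges overlapped in *Vangl2* lungs (23.2 to 29.4 in controls, 8.27 to 27.5 in mutants, log2 fold change -0.69, SE 0.45, limma adjusted p = 0.397). They also overlapped in P2 *Ror2* lungs (40.99 to 52.4 and 24.2 to 42.8, log2 fold change -0.44, SE 0.30, limma adjusted p = 0.421).

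In the P5 *Vangl2* lungs the *Dio2* difference rested on 1 lung. The controls had 31.0, 30.6 and 116 normalized counts and the mutants 45.8, 26.9 and 26.8, and the log2 fold change of -0.57 became 0.058 once control replicate 3 was left out. That lung stood apart by genes of brown fat, in which *Dio2* is also a classical gene. It had 2637 normalized counts of *Ucp1*, the uncoupling protein that defines brown fat, 364 of *Adipoq* and 554 of *Cidea*. The sum of 7 adipocyte markers was 4100 there, 28.2 and 57.5 in the other controls, and 49.2 to 762 in the mutants. *Ucp1* was listed at 0 in both other controls. The part of these cells in the *Dio2* level was not tested.

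*Dio3* (chr12:110279068-110281097, + strand) was at or near the floor in all 24 lungs, with 0 to 5.47 normalized counts, so no fold is given. The floor used is 3 reads a lung. In the P5 *Ror2* lungs the controls had 3.73, 4.02 and 2.98 normalized counts and the mutants 1.06, 1.04 and 0, without overlap but at a few reads each. Levels differed widely among its neighbours in the imprinted *Dlk1*-*Dio3* domain. *Dlk1*, *Meg3* and *Rian* had 397 or more normalized counts in every lung, while *Rtl1* had 0 to 14.3 and *Dio3os* 2.87 to 29.4. Of 6 such genes tested, 5 had a positive log2 fold change in *Vangl2* mutants at P2, 5 in *Ror2* mutants at P2, 6 in *Ror2* mutants at P5 and 5 in *Vangl2* mutants at P5. In the 3 tested comparisons 0 of them were called. *Dlk1*, which encodes a membrane protein of fetal tissues, was at 1111, 887 and 397 in P5 *Ror2* controls and at 2839, 1654 and 1532 in the mutants (log2 fold change 1.40, SE 0.38, limma adjusted p = 0.150). In the P5 *Vangl2* lungs it was at 2130.3, 1427 and 1376 in controls and at 5529, 6542 and 4316 in mutants (not tested). The ranges did not overlap in either, and *Dlk1* was named after its values were seen.

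*Hr* (chr14:70552212-70573548, + strand) had the lowest log2 fold change at P5 of the 6 members with a fold, which leaves out *Dio3*. At P5 the *Ror2* controls had 241, 316 and 302 normalized counts and the mutants 107, 124 and 142, so that every mutant lay far below every control. The log2 fold change was -1.20 (SE 0.17), or 2.29-fold lower on that scale, with a limma adjusted p of 0.0520. The adjusted p was 0.0214 to 0.385 over 14 alternative settings, and it passed 0.05 in 2 of them, without mutant replicate 1 and without mutant replicate 3. The P5 *Vangl2* lungs, on which the choice was made, had 258, 288 and 289 in controls and 99.9, 128 and 100.1 in mutants. Their log2 fold change was -1.35.

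At P2 the *Hr* differences were smaller. The *Ror2* controls had 111, 148 and 107 normalized counts and the mutants 80.0, 74.0 and 76.7, again without overlap, and the log2 fold change was -0.65 (SE 0.20, limma adjusted p = 0.206). The *Vangl2* controls had 155, 123 and 168 and the mutants 71.3, 73.8 and 153, of which the third lay within the control range. There the log2 fold change was -0.66 (SE 0.32, limma adjusted p = 0.268), and with 1 lung left out it ranged from -1.01 (without mutant replicate 3, limma adjusted p = 0.0297) to -0.47 (without mutant replicate 1, adjusted p = 0.495). The adjusted p was under 0.05 in 1 of 14 alternatives. The *Vangl2* and *Ror2* changes at P2 differed by -0.011 (SE 0.39, limma adjusted p = 0.999). Between ages the *Ror2* change differed by -0.55 (P5 minus P2, SE 0.25, unadjusted p = 0.0474, limma adjusted p = 0.519). Over all genes, 0% of changes differed between mutants at P2 (788 genes at an unadjusted p under 0.05) and 0% between ages in *Ror2* mutants (1614 genes).

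Between the ages, *Hr* was higher in P5 controls than in P2 controls in both sets of control lungs. In RPM (reads scaled to a common total over the chromosomes kept for all lungs), the *Vangl2* controls had 11.3 ± 1.70 at P2 and 22.1 ± 1.94 at P5 (SD, n = 3), and the *Ror2* controls 9.97 ± 1.95 and 22.4 ± 2.83. These are ratios of 1.96 and 2.25, and every P5 control lay above every P2 control of its set. The P5 mutants had 9.15 ± 1.34 (*Vangl2*) and 9.98 ± 1.30 (*Ror2*), which is 0.813 and 1.00 times the P2 controls of the same set. The P2 mutants had 7.17 ± 3.30 and 6.08 ± 0.300. In the order of group means, P2 mutants were thus lowest and P5 controls highest in both sets. Between them, P5 mutants lay below P2 controls in the *Vangl2* set and level with them in the *Ror2* set. In the *Vangl2* set, P5 mutants below P5 controls is the difference on which the genes were chosen, so nothing is read from that part of the order. The tables were normalized separately and age was never compared within 1 table, so these levels are a description with no test.

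*Thra* was also higher in P5 controls, by 1.43 times in the *Vangl2* set and 1.19 times in the *Ror2* set, with every P5 control above every P2 control. *Thrb* was at 0.943 and 0.616 times the P2 level. *Klf9* was at 0.866 times in the *Vangl2* controls and 1.65 times in the *Ror2* controls, so the sets did not share a direction.

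**Figure D3:**
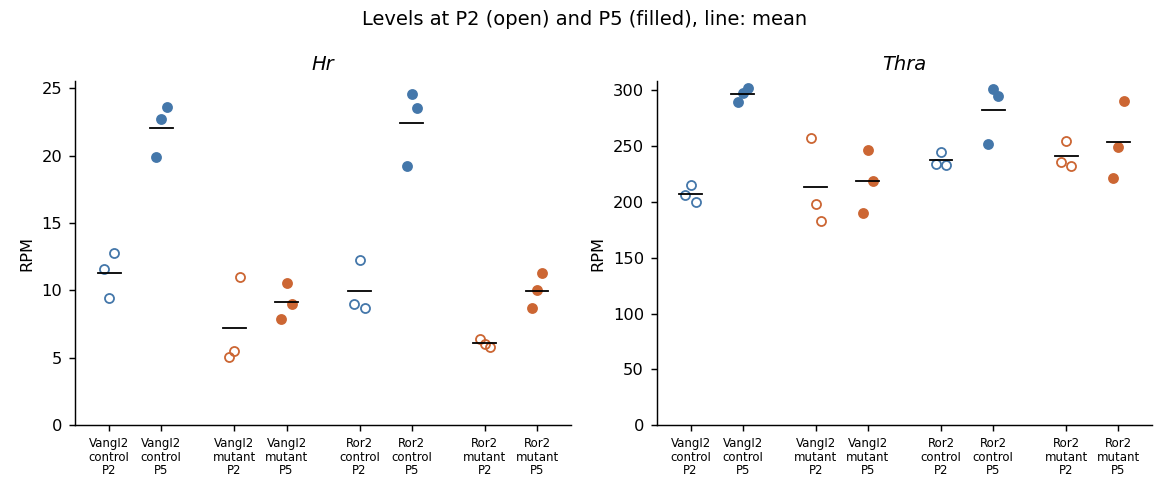
RPM (y axis, from 0) of Hr and Thra in single lungs of the 8 groups (x axis), P2 as open and P5 as filled points, controls in blue and mutants in orange, with the mean of 3 lungs as a line. The P5 control lungs lie at 19.2 to 24.6 for Hr, above all other lungs, and the P5 mutant lungs at 7.91 to 11.3.

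Several lists of cell type markers also differed between mutants and controls, not all in 1 direction. In P5 *Vangl2* lungs, 5 of 6 matrix fibroblast markers had a negative log2 fold change, and their sum was 244926 to 263090 normalized counts in controls and 114485 to 187559 in mutants. In P2 *Ror2* lungs 4 of 6 were negative, with sums of 204268 to 207168 and 142838 to 189303, and in P2 *Vangl2* lungs 4 of 6, with 179452 to 196195 and 135903 to 152044. In P5 *Ror2* lungs all 6 were negative, but the mutant sums of 154995 to 228592 lay under controls 2 and 3 (252543 and 249810). Control 1 is left out because *Col1a2* and *Pdgfra* were set to missing there. Of 6 myofibroblast and smooth muscle markers, 0 were positive in *Vangl2* mutants at P2 and 1 at P5. In *Ror2* mutants 1 of 6 was positive at P2 and 0 at P5. Of 3 erythroid markers, 0 were positive in both *Vangl2* comparisons and in *Ror2* mutants at P2, and 1 of 4 was in *Ror2* mutants at P5. All 6 neutrophil markers had a positive log2 fold change in both *Vangl2* comparisons, with sums of 2986 to 4865 in controls and 8972 to 12039 in mutants at P2. In *Ror2* lungs all 6 were positive at P5 (median 0.56) and 1 of 6 at P2 (median -0.48), where the log2 fold change of *Hr* was negative too. All 6 endothelial markers were negative in P5 *Vangl2* mutants (median -0.55), and 3 of 6 were positive in *Vangl2* mutants at P2, 6 of 6 in *Ror2* mutants at P2 and 2 of 6 in *Ror2* mutants at P5. Of 6 alveolar type I markers, 6 were positive in both mutants at P2 and 5 in both at P5. Of 6 alveolar type II markers, 5 were positive in both mutants at P2, and at P5 6 in *Vangl2* and 3 in *Ror2* mutants. None of these marker sums was near 0 in any lung, and their part in the *Hr* difference was not tested.

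On log2 values centred on each table's mean, the 5 genes most like *Hr* over 24 lungs among 16723 genes were *Ccdc80* (Pearson r = 0.90), *Kctd5* (0.90), *Rcan1* (0.88), *Stc1* (0.88) and *Plcxd3* (0.88). *Rcan1* encodes a regulator of calcineurin and *Stc1* the secreted glycoprotein stanniocalcin. All 5 had negative log2 fold changes in all 4 comparisons, from -2.31 to -0.26. Since these correlations include the difference between mutants and controls, they describe a shared pattern over the same lungs and nothing more. Among the members, *Hr* ran opposite to *Thrb* (r = -0.74) and with *Dio2* (r = 0.61) over the same 24 lungs.

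*Klf9* (chr19:23141226-23168134, + strand) was higher on average in both mutants at P2, with a wide spread. The P2 *Vangl2* controls had 1036, 802 and 1641 normalized counts and the mutants 4800.0, 2165 and 2214, without overlap. The log2 fold change was 1.36 (SE 0.35), or 2.56-fold, with a limma adjusted p of 0.0778. Without mutant replicate 3 it was called (adjusted p = 0.0420), and over all alternatives the adjusted p ranged up to 0.274. In the P2 *Ror2* lungs the controls had 816, 757 and 1298 and the mutants 1672, 875 and 3163, so that the second mutant lay within the control range. That log2 fold change was 0.84 (SE 0.44, limma adjusted p = 0.328).

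At P5 the *Klf9* order was the opposite in the *Ror2* lungs. The controls had 1782, 1588 and 1536 normalized counts and the mutants 1386, 1243 and 1061, all below the controls, with a log2 fold change of -0.42 (SE 0.11, limma adjusted p = 0.140). The difference between the *Ror2* changes at P5 and at P2 was -1.26 (SE 0.51, unadjusted p = 0.0290, limma adjusted p = 0.489). The P5 *Vangl2* lungs overlapped, with 992, 837 and 1053 in controls and 1723, 977 and 1157 in mutants (log2 fold change 0.39, not tested).

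*Klf9* is a target of the glucocorticoid receptor too, and 7 other glucocorticoid-responsive genes were listed beside it. At P2 all 7 had a positive log2 fold change in *Vangl2* mutants (median 1.60) and all 7 in *Ror2* mutants (median 0.57), where the median of all genes was 0.00115 and -0.00588. In the 3 tested comparisons 0 of the 7 were called. At P5, 5 of 7 were positive in *Vangl2* mutants (median 0.78) and 3 of 7 in *Ror2* mutants (median -0.090). *Zbtb16*, which encodes a zinc finger repressor, had the largest P5 *Vangl2* difference of the list, with 91.2, 83.5 and 63.5 normalized counts in controls and 636, 514 and 564 in mutants. Its log2 fold change there was 2.84 (not tested), and the gene was named after its values were seen. In the P2 *Ror2* mutants *Zbtb16* had 2586, 169.7 and 828 against 94.9, 71.7 and 82.0, a log2 fold change of 3.10 (SE 0.86, limma adjusted p = 0.203).

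Over the lungs, the correlation with *Klf9* was closer for some glucocorticoid-responsive genes than for others. As for *Hr*, these correlations include the difference between mutants and controls and describe a shared pattern only. *Tsc22d3*, which encodes the glucocorticoid-induced leucine zipper protein, had 17740.7 normalized counts in P2 *Vangl2* mutant replicate 1, the lung with the most *Klf9*, and 1467 to 5702 in all other lungs with a value. On centred log2 values, Pearson's r with *Klf9* was 0.89 for *Tsc22d3* (23 lungs) and 0.88 for *Per1*, a circadian clock gene (24 lungs). It was 0.81 for *Cebpd*, 0.74 for *Fkbp5*, 0.65 for *Zbtb16*, 0.47 for *Sgk1* and 0.41 for *Dusp1*. The thyroid hormone receptor gene *Thrb* had r = 0.55 with *Klf9* and *Hr* had -0.35. The 5 genes most like *Klf9* among 16723 were *Mafk* (r = 0.94, 23 lungs), *Map3k6* (0.93), *Timp3* (0.93), *Ptgis* (0.93) and *Rgcc* (0.93). The hormones themselves were not measured, and the part of either in the *Klf9* level was not tested.

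**Figure D4:**
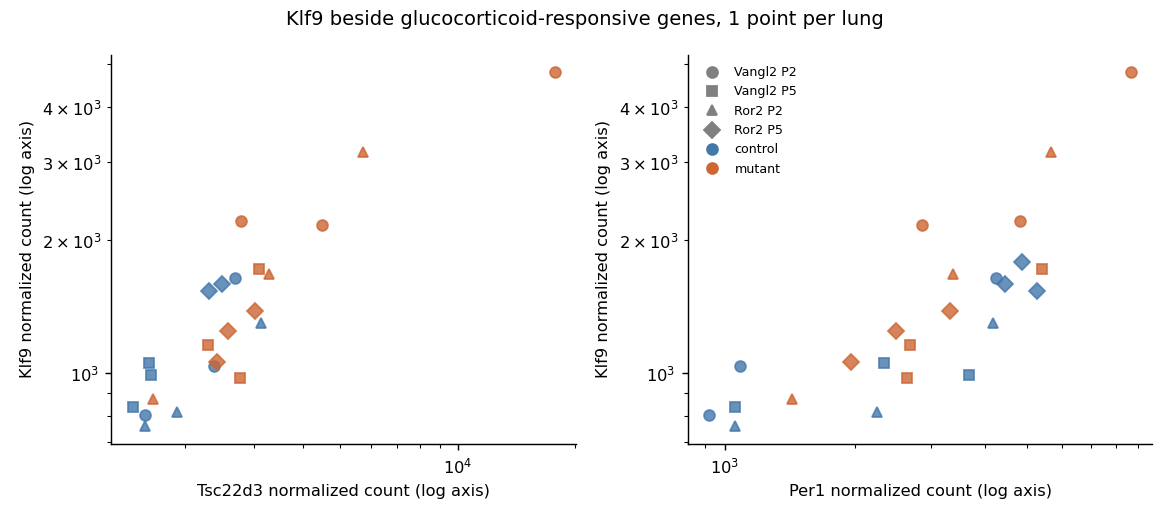
Klf9 normalized count (y axis, log scale) against Tsc22d3 and Per1 (x axes, log scales), 1 point per lung, with symbols for the 4 comparisons and colours for controls and mutants; 1 lung has no Tsc22d3 value. The lung with 4800.0 Klf9 counts, a P2 Vangl2 mutant, is also the highest for both other genes.

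*Thrsp* (chr7:97412938-97417730, - strand) had few reads and no shared direction. The P2 *Vangl2* controls had 25.3, 15.2 and 12.5 normalized counts and the mutants 77.5, 15.7 and 23.4 (log2 fold change 0.83, SE 0.59, limma adjusted p = 0.441). The P2 *Ror2* controls had 13.4, 45.95 and 20.49 and the mutants 10.1, 8.53 and 24.2 (log2 fold change -0.81, SE 0.56, limma adjusted p = 0.436). The control with 45.95 had 345 counts over the 7 adipocyte markers. Its fellow controls had 37.1 and 109 and the mutants 20.3 to 50.4, and the part of fat was not tested. The P2 changes differed by 1.64 (SE 0.88, limma adjusted p = 0.946). At P5 the *Ror2* controls 2 and 3 had 11.0 and 19.8 and the mutants 29.6, 15.7 and 16.2 (log2 fold change 0.38, SE 0.44, limma adjusted p = 0.667), with control 1 set to missing because it lacks reads on this chromosome.

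The highest *Thrsp* value of all lungs, 261 normalized counts, was in the P5 *Vangl2* control with the brown fat genes. Its fellow controls had 4.56 and 11.8 and the mutants 43.99, 11.2 and 60.8, and the first and the third mutant had 404 and 227 counts of *Ucp1*. The log2 fold change was 0.29 with all lungs and 1.94 when control replicate 3 was left out (neither was tested). Not every high value went with *Ucp1*: the P2 *Vangl2* mutant with 77.5 had *Ucp1* at 0. Whether fat attached to the lobes set these *Thrsp* levels was not tested.

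**Figure D5:**
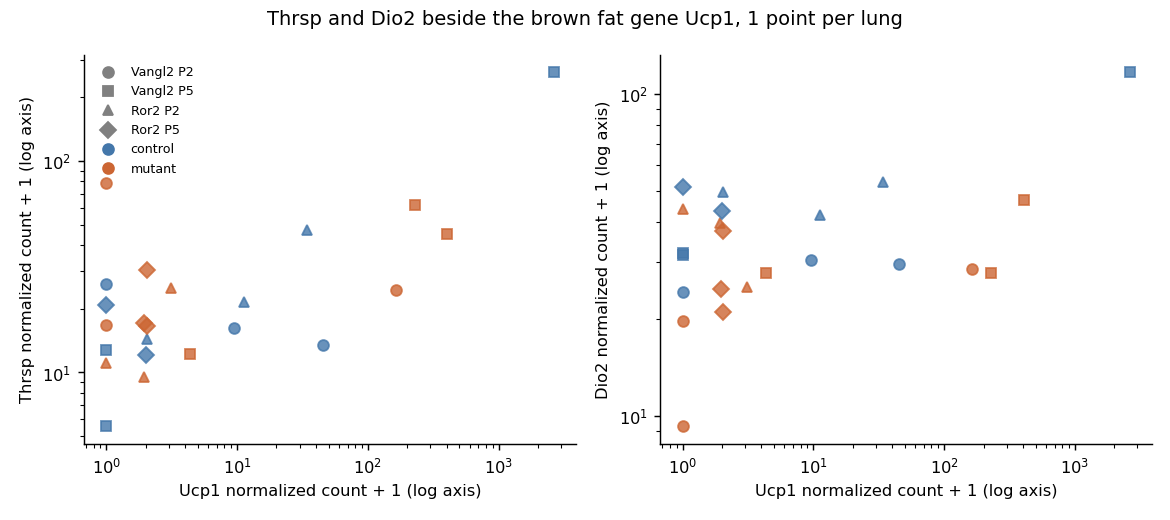
Thrsp and Dio2 (y axes) against the brown fat gene Ucp1 (x axes), each as normalized count + 1 on log scales, 1 point per lung, with symbols for comparisons and colours for controls and mutants. The blue square far to the right is P5 Vangl2 control replicate 3, with 2637 Ucp1, 261 Thrsp and 116 Dio2 counts; 1 lung has no Ucp1 or Thrsp value and is not drawn.

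The rest of the pathway was read from lists. Of the genes listed for hormone transport and binding, 0 of 7 tested were called in *Vangl2* mutants at P2 and 0 of 8 in *Ror2* mutants at P2. *Slc7a8*, which encodes an amino acid transporter that also carries thyroid hormone, had P5 *Vangl2* controls at 749, 643 and 785 and mutants at 466, 365 and 214.5, without overlap. In P2 *Ror2* lungs it was at 452, 585 and 496.5 in controls and at 252, 352 and 202 in mutants, also without overlap (log2 fold change -0.96, SE 0.21, limma adjusted p = 0.203). The ranges overlapped in P2 *Vangl2* lungs, with 306, 433 and 410 in controls and 549.9, 223 and 339 in mutants (log2 fold change -0.13, SE 0.31, limma adjusted p = 0.837). They also overlapped in P5 *Ror2* lungs, with 786, 1085 and 1046 in controls and 197, 703 and 881 in mutants (log2 fold change -0.96, SE 0.50, limma adjusted p = 0.338). *Slc7a8* was named after its values were seen.

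Of 14 receptor partners and coregulators, such as *Rxra* and *Ncor1*, 0 were called in any of the 3 tested comparisons, with medians of 0.17 and 0.086 at P2 and -0.18 and -0.052 at P5 (*Vangl2* and *Ror2* in turn). Of 12 other thyroid hormone responsive genes, 0 were called in any of the 3, with medians of 0.0083, -0.12, 0.24 and 0.032 in *Vangl2* P2, *Ror2* P2, *Vangl2* P5 and *Ror2* P5. Of 4 nuclear receptors that Hairless binds, 0 were called in any of the 3. Of these, *Vdr*, the vitamin D receptor gene, was above the controls in all 3 P2 *Vangl2* mutants, with 203, 163 and 141 normalized counts in controls and 391, 291 and 232 in mutants (log2 fold change 0.83, SE 0.23, limma adjusted p = 0.0931). *Vdr* was named after its values were seen.

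The lungs and labels were checked with other genes. *Xist*, the RNA of the inactive X chromosome in female cells, had 22393, 23.7 and 115 normalized counts in P2 *Vangl2* controls. The mutants of that comparison had 202, 20523.5 and 18947. The sexes were thus mixed unequally between groups, and no fit included sex. Reads on genes were 16178031 to 21546673 in the lungs where they could be recovered, except for 1 lung with 13823693, P5 *Ror2* control replicate 1, which lacks reads on chromosomes 6 to 9 and X and most of 5. *Vangl2* had 369, 314 and 292 normalized counts in P5 controls and 169.5, 148 and 166 in P5 *Vangl2* mutants, and its log2 fold change at P2 was -0.39 (SE 0.18, limma adjusted p = 0.241). *Ror2* in its own mutants had log2 fold changes of -0.38 at P2 (SE 0.16, limma adjusted p = 0.250) and -0.16 at P5 (SE 0.20, limma adjusted p = 0.691). The ranges overlapped at both ages, and at P2 the controls had 451, 581 and 520 normalized counts and the mutants 479, 349 and 366. In *Vangl2* mutants *Ror2* had -0.011 at P2 and -0.48 at P5, and in *Ror2* mutants *Vangl2* had -0.21 and -0.28. *Ror2* RNA thus did not mark its own mutants at either age. It gave no check of the title of the P2 *Ror2* mutants, which carry a genotype entry for the wrong gene. Alveolar type II markers summed to 173431 or more in every lung, while 4 markers of the thyroid gland summed to at most 107.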

How the data were processed

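Whole left lung lobes were sequenced as RNA (24 lungs, 8 groups of 3). The authors deposited, for each of 4 comparisons, a table of 23420 genes whose signal values are reads scaled by size factors estimated among its 6 lungs. The submitters' processing notes name the build mm10 and the tool DESeq2, and the aligner and read counter are not given in the sources used here. The deposited columns of the authors' own comparisons (mean, log2 fold change and its error, statistic, p-value, adjusted p-value) were not used. Gene positions are from GENCODE for GRCm38, which is mm10.

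Members and lists were chosen with earlier results of these data known. Each comparison was fitted with limma (3.58.1, R 4.3.3; functions lmFit and eBayes, trend on) to log2(normalized count + 1) of its 6 lungs, keeping genes that reached a normalized count of 1 in 3 or more lungs, with no covariates and Benjamini-Hochberg adjustment over all of them (threshold 0.05). A fold change on that scale understates the change of weakly expressed genes. Differences between comparisons were fitted over 12 lungs. The planned edgeR test needs counts and the files hold normalized values, so limma was the test, and edgeR (4.0.16) on recovered reads was an alternative at P2. Whole reads were recovered in 21 of 24 lungs (100% of values within 0.02 of a whole read). In P5 *Ror2* control replicate 1, genes on chromosomes 5 to 9 and X, and 152 names without a chromosome, were set to missing. By rule, the genes named beside the members were those called in the lists in the 3 tested comparisons and the 5 most like *Hr* and *Klf9*. Other listed genes given with values, such as *Zbtb16*, *Dio1* and *Ucp1*, were named after their values were seen. The results of 1 listed gene are not reported here.

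Replicates are separate lungs by label. Same-numbered P5 *Vangl2* lungs deviated together (r of 0.38, 0.34 and 0.24), so their numbers were taken as pairs there, which rests on the data and not on a label, while the other tables did not reach 0.1 in every pair. Scripts were tested on simulated data. Alternatives were the replicate block, other pseudocounts (0.5 and 5), filters and scalings, all 12 lungs of an age in 1 fit, and leaving out each lung.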

Additional observations from a re-analysis of the deposited data

Results flagged for a closer look

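*Klf9* lay on opposite sides of the control mean in the 2 mutants at P5. Every *Vangl2* mutant lung lay above the mean of its controls and every *Ror2* mutant lung below the mean of its own, and the log2 fold changes differed by 0.80 (*Vangl2* minus *Ror2*); this difference was not tested, because the genes were chosen on the *Vangl2* comparison.

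*Thrsp* did so between the ages in *Ror2* mutants, where all mutant lungs lay above the control mean at P5 and below it at P2. The log2 fold changes differed by 1.20 (SE 0.78, limma adjusted p = 0.632), so the difference did not pass its test. Between the mutants at P5, every *Thrsp* value of the *Vangl2* mutants lay below the mean of their controls, which control replicate 3 alone set high, and every value of the *Ror2* mutants above theirs. The log2 fold changes then differed by -0.092, and this difference was not tested.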

How the results depend on the processing

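With 3 lungs a group, single lungs decided most counts. The number of genes called in P2 *Vangl2* mutants was 50 with all 12 lungs of the age and 1 to 2308 with 1 lung left out. Members called there were 0 to 3, the 3 (*Hr*, *Klf9* and *Thrb*) without mutant replicate 3. In P5 *Vangl2* mutants the replicate block, where the numbers pair, gave 1558 genes and 2 members, all 12 lungs gave 1023 genes and 2 members, and leaving out 1 lung gave 0 to 53 genes and 0 members. The members were chosen on this comparison, so these counts of members are a description and no test. In P2 *Ror2* mutants the block gave 1 gene, and leaving out 1 lung gave 0 to 849 (849 without mutant replicate 2, 3 without control replicate 1). In P5 *Ror2* mutants the block gave 1 gene, all 12 lungs 3, control replicate 1 as deposited 1, and leaving out 1 lung 0 to 738, with 0 to 1 members (*Hr* without mutant replicate 1 or 3). In the tables other than P5 *Vangl2* the replicate numbers were no more than numbers.

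*Hr* and *Thrb* had 1 direction in each comparison under every alternative run. For *Hr* in P5 *Vangl2* mutants that direction was known when the genes were chosen, so nothing is read from it there. With 1 lung left out, the log2 fold change ranged from -0.070 to 0.19 for *Thra* in P2 *Vangl2* mutants, from -0.84 to 1.94 for *Thrsp* and from -0.89 to 0.058 for *Dio2* in P5 *Vangl2* mutants, and from -0.015 to 0.78 for *Thrsp* in P5 *Ror2* mutants. The difference between the *Vangl2* and *Ror2* changes at P2 ranged from -0.37 to 0.18 for *Hr*, from -0.14 to 0.12 for *Thra*, from -0.11 to 0.32 for *Thrb* and from -0.60 to 0.21 for *Dio2*, and that between the *Ror2* changes at P5 and P2 from -0.31 to 0.18 for *Thrb*. The causes of these changes were not tested.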

Other observations

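*Dio1*, the deiodinase gene of liver and kidney, was low throughout. In the P5 *Vangl2* lungs it had 0.912, 1.18 and 9.07 normalized counts in controls and 16.5, 10.1 and 27.7 in mutants, and in the P5 *Ror2* lungs 0, 0 and 2.98 against 3.17, 12.5 and 4.77. These differ without overlap in both, at few reads. At P2 the ranges overlapped, with 4.13, 8.27 and 15.8 in *Ror2* controls and 6.76, 2.84 and 0 in mutants (log2 fold change -1.58, SE 0.82, limma adjusted p = 0.323). In P2 *Vangl2* lungs they were 2.11, 6.64 and 11.5 against 7.24, 5.90 and 7.13 (log2 fold change 0.21, SE 0.56, limma adjusted p = 0.851). At P5 the *Ror2* difference was not called (limma adjusted p = 0.190) and the *Vangl2* difference was not tested. *Dio1* was named after its values were seen.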
